A study of Mus musculus with 23 samples.

Results

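The 10 genes described here encode the proteins that license chromosomes for replication: the 6 subunits of the MCM2-7 helicase (Mcm2 to Mcm7), the loading factors Orc1, Cdc6 and Cdt1, and geminin (Gmnn), the inhibitor of Cdt1. They were chosen by name and matched by gene symbol, and all 10 were found among the 56196 genes of each of 2 count tables. All 10 passed the filter on low counts in every fit. Poly(A) RNA was measured in 23 mouse libraries that the labels call WT or Eif4enif1+/-, that is, with 1 disrupted copy of Eif4enif1, whose product 4E-T binds the cap-binding protein eIF4E and is known for holding mRNAs in a repressed state. Fully grown oocytes at the germinal vesicle (GV) stage gave 8 libraries by T&T-seq, which reads total mRNA (the transcriptome) and mRNA captured on ribosomes (the translatome) from 1 sample, with 2 libraries for each genotype and fraction. Embryos gave 15 libraries of total mRNA, 3 in each group: WT 1-cell, Eif4enif1+/- 1-cell, WT 2-cell, Eif4enif1+/- 2-cell, and Eif4enif1+/- embryos arrested at the 1-cell stage. The 1-cell embryos had no treatment, whereas the 2-cell and arrested embryos had been cultured for 24 hours, so stage and culture cannot be told apart between them. Whether an embryo's label gives its own or its mother's genotype is not stated, and neither are strain, age and the number of cells per library.

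Licensing happens before each round of DNA synthesis. The origin recognition complex, of which Orc1 is the largest subunit, marks origins, Cdc6 joins it, and Cdt1 brings in the MCM2-7 ring, which is loaded around DNA and later becomes the core of the replicative helicase. Geminin binds Cdt1 and blocks a second loading in the same cycle, and its destruction as cells leave division lets licensing start again. A GV oocyte is arrested in meiotic prophase and makes no DNA, but it stores the mRNAs and proteins with which the fertilised egg replicates both pronuclei. In the mouse most stored maternal mRNA is degraded between meiotic maturation and the 2-cell stage, when transcription from the embryo's own genome rises.

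Libraries held 3621103 to 50487687 counts in GV oocytes and 5597333 to 40377212 in embryos, and levels are given as CPM, a gene's counts scaled by the library total after TMM normalization. The targeted gene Eif4enif1 was at 270 and 312 CPM in the WT translatome against 97.1 and 150 CPM in the Eif4enif1+/- translatome, and the difference was -1.24 on the log2 scale (adjusted p = 0.0224, edgeR's quasi-likelihood test). In total GV mRNA the difference was -1.26 on that scale (adjusted p = 0.0283). In embryos it was -1.12 at the 1-cell stage (-1.11 with Eif4enif1+/- 1-cell library 2 alone) and -0.60 at the 2-cell stage, all with an adjusted p of 1. Eif4enif1+/- 1-cell libraries 1 and 3 stand apart: their 100 most abundant genes hold 6.338% and 5.526% of counts, against 32.061% to 38.048% in the other 1-cell libraries, and their 15 oocyte markers sum to 2161 and 1755 CPM, against 23690 to 32680 CPM. They were therefore kept out of comparisons that do not need them, and tests of that group are given also with library 2 alone. Arrested library 1 also differs from arrested libraries 2 and 3: its oocyte markers sum to 32610 CPM and its 11 markers of 2-cell transcription to 156 CPM, whereas libraries 2 and 3 have 10600 and 12260 CPM, and 3449 and 2227 CPM. Oocyte markers were high in all 8 GV libraries (27270 to 90340 CPM). The 19 granulosa and cumulus cell markers summed to 179 and 359 CPM in the WT translatome, 614 and 922 in the Eif4enif1+/- translatome, 110 and 190 in the WT transcriptome, and 265 and 360 in the Eif4enif1+/- transcriptome, with 0 to 2 markers at 0. They thus moved with genotype in each fraction and with fraction in Eif4enif1+/- oocytes. In WT oocytes they were also higher in the translatome of each specimen (179 against 110 and 359 against 190 CPM). The part of these markers in the GV results below was not tested. CPM values are relative to the other mRNAs of a library. Changes in cell number or in total mRNA per cell do not show in them, so a lower CPM need not be a lower level per cell.

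The 10 genes lie on 8 chromosomes of the mm10 build. Mcm2 is at chr6:88883474-88898780, Mcm3 at chr1:20802968-20820312, Mcm4 at chr16:15623897-15637400, Mcm6 at chr1:128331590-128359664, Mcm7 at chr5:138164583-138172422 and Gmnn at chr13:24751845-24761923, all on the minus strand. Mcm5 at chr8:75109569-75128439, Cdc6 at chr11:98907801-98923940, Cdt1 at chr8:122568015-122573554 and Orc1 at chr4:108579423-108614833 are on the plus strand. Exons of Mcm7 overlap those of Ap4m1 and Cops6 and the microRNA genes Mir25 and Mir93, and Orc1 overlaps exons of the predicted gene Gm12743. Whether counting used strand is not stated, so reads in those overlaps could be split or shared and both genes' counts are uncertain to that extent.

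E2F transcription factors are known for driving licensing genes in cycling cells, so the RefSeq promoters (mm10, 250 bases before to 50 after each start) were searched on both strands for the E2F spellings TTTCCCGC, TTTGGCGC, TTTCGCGC and TTTGCCGC, which can overlap each other. Of the 8 members with a promoter in the table (all but Mcm4 and Gmnn), 7 held a match, and Mcm2 held none. Over all 32851 promoters of the same length, 744 held one (2.26%). One 30-base window for each of the 7 is shown, on the strand of its gene, because these are letters the family shares and its choice by name did not use. Capitals mark the match, read on either strand.
Mcm3, chr1:20820263-20820292, minus strand: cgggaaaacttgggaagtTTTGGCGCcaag
Mcm5, chr8:75109345-75109374, plus strand: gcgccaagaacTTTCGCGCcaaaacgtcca
Mcm6, chr1:128359734-128359763, minus strand: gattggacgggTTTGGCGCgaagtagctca
Mcm7, chr5:138171849-138171878, minus strand: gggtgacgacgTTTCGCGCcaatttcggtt
Orc1, chr4:108579416-108579445, plus strand: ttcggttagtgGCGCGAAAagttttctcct
Cdc6, chr11:98908002-98908031, plus strand: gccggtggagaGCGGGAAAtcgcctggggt
Cdt1, chr8:122568035-122568064, plus strand: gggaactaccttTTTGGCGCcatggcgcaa
The matches shown begin between -153 (Mcm5) and 38 (Mcm3) bases from the annotated start. They are descriptions of sequence, and no binding was measured.

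In oocytes the 3′ end of an mRNA can carry a cytoplasmic polyadenylation element, which the protein CPEB1 is known to bind and through which dormant maternal mRNAs are translated during maturation. The last 100 bases of each member's transcript were searched on the transcript strand for the spellings TTTTAT and TTTTAAT. A match was present in 6 of 10 members, and in 3399 of 19151 transcript ends of that length (17.7%). The windows are shown because the ribosome-bound share of these mRNAs is the main GV result. Whether the matches go with that share was not tested. Mcm2 and Mcm5, both higher on ribosomes in both genotypes (below), had 1 and 0 matches. Gmnn had 2 and differed in the other direction without passing. Capitals mark 1 match per window, and the second of Gmnn, TTTTAAT, is in lower case in its window.
Mcm2, chr6:88883490-88883519, minus strand: tgtagtttattTTTTAATagatttgaataa
Mcm4, chr16:15623967-15623996, minus strand: tttcattaatTTTTATagatccttagatta
Mcm7, chr5:138164614-138164643, minus strand: catgctgcacttTTTTATtctgccaataaa
Orc1, chr4:108614804-108614833, plus strand: gatacaaagtaaaattgaTTTTATagaaaa
Cdt1, chr8:122573073-122573102, plus strand: ctagttttggcTTTTAATaaagtcatgtaa
Gmnn, chr13:24751913-24751942, minus strand: atttttaatccgTTTTATgtaaatagcatt
Mcm3, Mcm5, Mcm6 and Cdc6 had neither spelling in that window. The annotated ends need not be the ends used in oocytes.

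All 10 mRNAs were present in GV oocytes, each with at least 118 counts in every library. Compared per kilobase of exon, Gmnn was the most abundant member in WT total mRNA (106 ± 19.9 CPM per kb, SD, n = 2), followed by Cdt1 (41.8 ± 3.61) and Mcm5 (25.1 ± 2.87). Mcm4, Mcm6 and Orc1 followed at 21.6 ± 6.18, 18.5 ± 4.48 and 14.7 ± 2.60 CPM per kb, within their spread of each other. Mcm2, Mcm7, Cdc6 and Mcm3 were lowest, at 10.9 ± 2.75, 10.2 ± 2.69, 8.65 ± 0.191 and 7.57 ± 0.337 CPM per kb, and Mcm2 and Mcm7 did not differ beyond their spread. In the WT translatome Gmnn (74.6 ± 8.45 CPM per kb) and Cdt1 (72.7 ± 4.49) were level. The ratio of Gmnn to Cdt1 per kb was 3.05 and 2.07 in the 2 WT transcriptomes and 0.988 and 1.06 in the translatomes of the same samples. In Eif4enif1+/- oocytes it was 4.01 and 8.47 in total mRNA and 1.43 and 2.26 on ribosomes. The ratio was thus lower among ribosome-bound than among total mRNAs in all 4 samples.

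This order rests on the merged length of all annotated exons, which for Mcm2 (6956 bases) and Cdc6 (5229 bases) is about double that of 1 annotated transcript (3371 and 2559 bases). By transcript length Gmnn and Cdt1 were again highest and Mcm3 lowest in WT total mRNA. Mcm5 (29.67 ± 3.38 CPM per kb) and Mcm6 (29.66 ± 7.19) were then level. Mcm2 was at 22.5 ± 5.67 and Cdc6 at 17.7 ± 0.390 CPM per kb, beside Mcm4 at 21.6 and Orc1 at 16.95 CPM per kb. The ranks from the third to the ninth therefore depend on the length used. The Gmnn to Cdt1 ratio by transcript length was 2.77 and 1.87 in WT total mRNA and 0.895 and 0.963 on ribosomes.

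**Figure D1:**
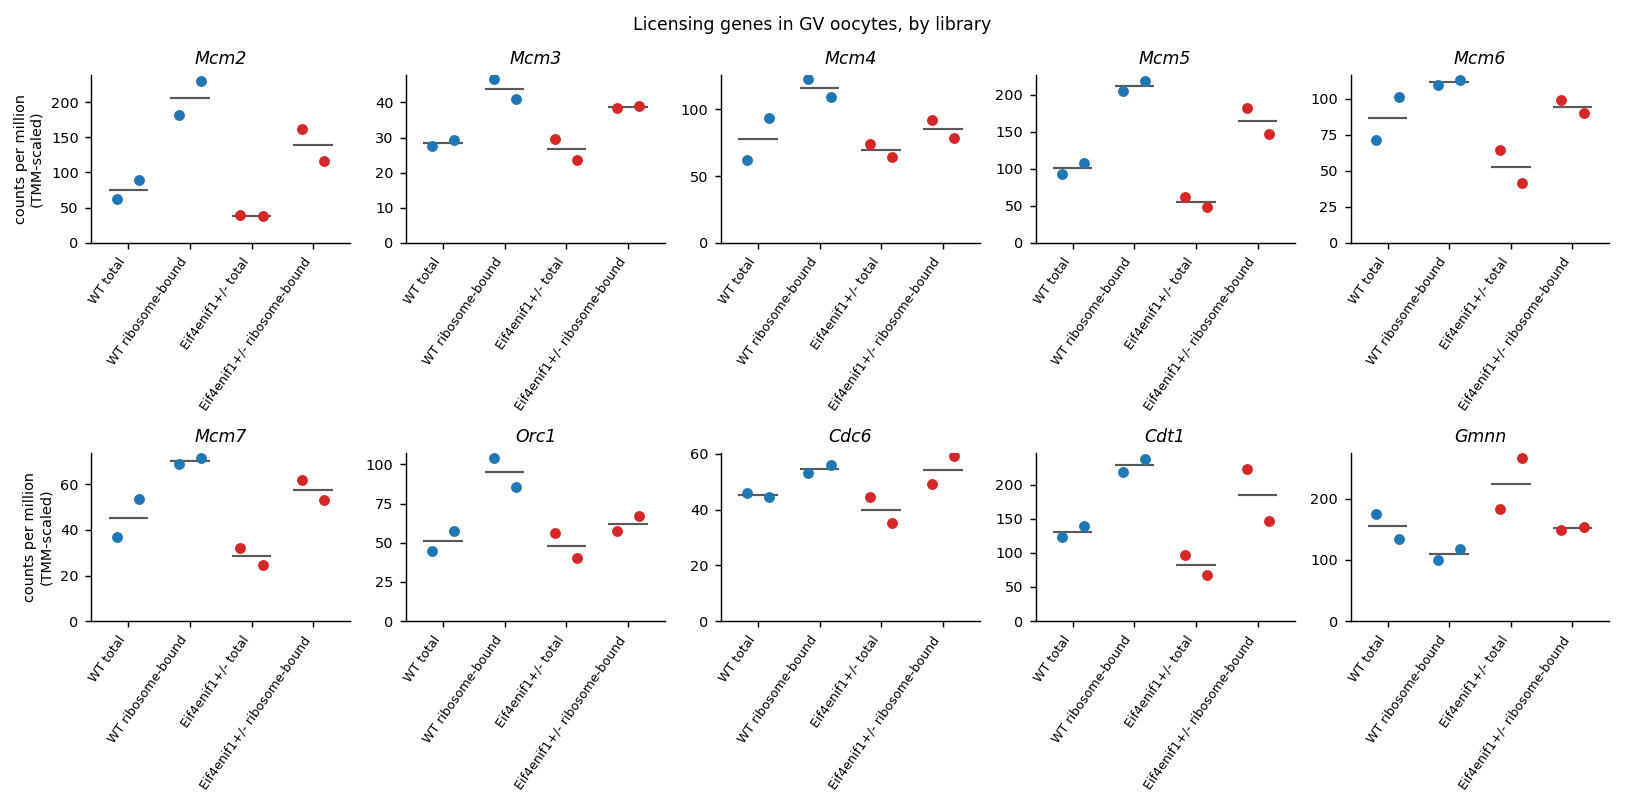
Level of each licensing gene in the 8 GV libraries in TMM-scaled CPM, each axis starting at 0 (points, libraries; blue, WT; red, Eif4enif1+/-; bars, group means, n = 2). Mcm2, Mcm3, Mcm5, Cdc6, Cdt1 and Orc1 are higher in every ribosome-bound library than in every total-mRNA library, Orc1 only just (57.7 against 57.5). Gmnn lies lower on ribosomes within each genotype. Within a genotype the fractions do not overlap for 59.3% of all genes in WT and 58% in Eif4enif1+/- oocytes.

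The first question was which licensing mRNAs were over- or under-represented on ribosomes relative to total mRNA. In WT oocytes 3 of 10 members were higher in the translatome: Mcm2, Mcm5 and Orc1. In Eif4enif1+/- oocytes 4 were: Mcm2, Mcm5, Mcm7 and Cdt1. None was lower in either genotype. A gene is said to have risen or fallen where edgeR's quasi-likelihood test gave a Benjamini-Hochberg adjusted p under 0.05 over all genes tested, and by that rule 8.95% of 22409 genes were higher on ribosomes in WT and 6.19% in Eif4enif1+/- oocytes. With the specimen that both fractions share (4 specimens) as a replicate block, Cdt1 was added in WT (4 called) and Mcm6 in Eif4enif1+/- oocytes (5 called). The share of all genes called in either direction rose as well, from 14.6% to 17.4% in WT and from 8.09% to 10.6% in Eif4enif1+/- oocytes.

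Mcm2, a regulatory subunit that also binds histones, was at 62.2 and 89.2 CPM in the WT transcriptome and at 182 and 230 CPM in the WT translatome, a 2.71-fold difference (log2 1.44 ± 0.27 SE, adjusted p = 0.00601). In Eif4enif1+/- oocytes it was at 37.4 and 39.3 CPM in total mRNA and at 116 and 162 CPM on ribosomes (log2 1.86 ± 0.28, adjusted p = 0.00283). Both ribosome-bound groups lay wholly above their total-mRNA groups. Fractions did not overlap, in either direction, for any of the 10 members. This was also so for 59.3% of all genes in WT and 58% in Eif4enif1+/- oocytes. Mcm5, which closes the ring beside Mcm2 at the gate through which DNA enters, was at 92.2 and 108 CPM in WT total mRNA and at 206 and 219 CPM on ribosomes (log2 1.08 ± 0.25, adjusted p = 0.0137). Among Eif4enif1+/- samples it went from 48.7 and 61.5 CPM to 147 and 183 CPM (log2 1.59 ± 0.25, adjusted p = 0.00342). The groups again did not overlap in either genotype.

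Orc1 was at 44.7 and 57.5 CPM in WT total mRNA and at 85.8 and 104 CPM on WT ribosomes (log2 0.90 ± 0.26, adjusted p = 0.0368). Eif4enif1+/- oocytes had 40.2 and 56.0 CPM in total mRNA and 57.7 and 66.9 CPM on ribosomes, a difference of 0.38 on the log2 scale that did not pass (adjusted p = 0.385). Cdt1, the MCM loader, was at 123 and 139 CPM in WT total mRNA and 218 and 238 CPM on ribosomes (log2 0.80 ± 0.28, adjusted p = 0.0670). The Eif4enif1+/- values were 67.5 and 97.5 CPM against 146 and 222 CPM (log2 1.17 ± 0.28, adjusted p = 0.0242). The groups did not overlap in either genotype for Cdt1 or Orc1, as for all 10 members. Mcm7, a core helicase subunit, was at 36.8 and 53.6 CPM against 69.1 and 71.5 CPM in WT (log2 0.64 ± 0.26, adjusted p = 0.116) and at 24.6 and 32.3 CPM against 53.2 and 61.7 CPM in Eif4enif1+/- oocytes (log2 1.03 ± 0.27, adjusted p = 0.0347).

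Geminin was the member whose difference had the opposite sign in both genotypes. Gmnn was at 134 and 175 CPM in WT total mRNA and at 101 and 118 CPM on ribosomes, a difference of -0.50 on the log2 scale (95% interval -1.02 to 0.01, adjusted p = 0.210). In Eif4enif1+/- oocytes it was at 183 and 267 CPM in total mRNA and at 149 and 155 CPM on ribosomes (log2 -0.57, interval -1.09 to -0.05, adjusted p = 0.190). The ribosome-bound values lay below the total-mRNA values in each genotype, but neither difference passed. Mcm3, Mcm4, Mcm6 and Cdc6, the ATPase that loads MCM with ORC, had differences of 0.26 to 0.85 on the log2 scale in the 2 genotypes and did not pass in either (adjusted p 0.0768 to 0.493). Whether the fraction difference itself differed with genotype was tested as an interaction, which called none of the 10 genes and 3 of all genes (0.0134%). DESeq2 called none of the 10 and 112 of all genes. The members' interaction values ran from -0.51 (Orc1) to 0.51 (Mcm5), with unadjusted p from 0.168 to 0.856, so calls in 1 genotype alone are not shown to differ between genotypes. Leaving out 1 GV library leaves 1 library in a group, and without Eif4enif1+/- transcriptome 2 that is the shallowest library. Members lost calls in such fits, Orc1 in WT oocytes in each of them. Fewer of all genes were called in each as well, so these losses are not specific to the members. The smallest log2 values over 9 alternatives, these fits among them, were 1.19 for Mcm2, 0.96 for Mcm5 and 0.71 for Orc1 in WT oocytes. In Eif4enif1+/- oocytes they were 1.62 for Mcm2, 1.42 for Mcm5, 0.83 for Mcm7 and 0.855 for Cdt1.

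Among 99 other replication genes in 7 lists (other ORC subunits, other MCM proteins and partners, regulators of licensing, origin firing, the replication fork, dNTP supply, and E2F and RB), 97 were tested. In WT oocytes 14 were higher and 1 lower on ribosomes, where 8.95% of all genes were higher and 5.64% lower. In Eif4enif1+/- oocytes 12 were higher and 2 lower, where 6.19% of all genes were higher and 1.91% lower. Mcm10, which joins the helicase when origins fire, rose from 32.8 ± 0.939 to 95.8 ± 18 CPM in WT (SD, n = 2; log2 1.54, adjusted p = 0.00302) and from 36.8 ± 5.62 to 70.7 ± 7.19 CPM in Eif4enif1+/- oocytes (log2 0.95, adjusted p = 0.0366). E2f1, an activator of S-phase genes, was 2.50 and 2.19 higher on the log2 scale on ribosomes (adjusted p = 0.00415 and 0.0116). Fzr1, the APC/C activator Cdh1 that holds oocytes in prophase, was 1.24 and 2.05 higher (adjusted p = 0.0266 and 0.00446). Fen1, the flap nuclease of lagging-strand synthesis, was 1.51 and 2.13 higher (adjusted p = 0.00557 and 0.00207). Of the 6 other ORC genes none was called in either genotype.

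The second question was whether the Eif4enif1+/- genotype changed these mRNAs. None of the 10 members was called in either GV fraction, where 4.61% of genes were called in the translatome and 2.55% in the transcriptome. At an unadjusted p under 0.05, 1 member passed in the translatome (Orc1) and 5 in the transcriptome (Mcm2, Mcm5, Mcm6, Mcm7 and Cdt1), all lower, beside 21.3% and 19.6% of all genes in either direction. In total mRNA Mcm2 was at 37.4 and 39.3 CPM in Eif4enif1+/- against 62.2 and 89.2 CPM in WT oocytes (log2 -0.98 ± 0.28, adjusted p = 0.0746). Mcm5 was at 48.7 and 61.5 CPM against 92.2 and 108 CPM (log2 -0.87 ± 0.25, adjusted p = 0.0787). The genotypes did not overlap for either gene. In groups of 2 this was also so for 50.3% of all genes, and for 7 of the 10 members. In total mRNA DESeq2 called Mcm2 and Mcm5 (none on ribosomes), and edgeR without the filter on low counts called Mcm2. Of all genes in total mRNA, DESeq2 called 7.91% and edgeR without the filter 4.12%.

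Gmnn had the opposite sign from the other 9 members in both fractions. In total mRNA it was at 183 and 267 CPM in Eif4enif1+/- against 134 and 175 CPM in WT oocytes (log2 0.54, interval 0.02 to 1.05, adjusted p = 0.278), and on ribosomes at 149 and 155 against 101 and 118 CPM (log2 0.47, interval -0.04 to 0.99, adjusted p = 0.326). The largest difference on ribosomes was that of Orc1, at 57.7 and 66.9 CPM against 85.8 and 104 CPM (log2 -0.61, adjusted p = 0.194). The median over the 10 members was -0.30 in the translatome and -0.43 in the transcriptome, beside 0.04 and -0.04 over all genes tested. Of the 97 other replication genes, 1 rose and 2 fell in the translatome, where 4.61% of all genes were called in either direction. Wdhd1, which links the helicase to the primase polymerase, fell from 30.8 ± 1.81 to 14.1 ± 3.14 CPM (adjusted p = 0.0453), E2f2 fell from 25.7 ± 6.42 to 8.69 ± 0.776 CPM (adjusted p = 0.0484), and Cdkn1a, the CDK inhibitor p21, rose from 1.83 ± 0.602 to 7.28 ± 1.84 CPM (adjusted p = 0.0211). In total mRNA 1 rose and 2 fell, all of the replication fork, beside 2.55% of all genes called in either direction. Timeless and Pold2 fell by 1.11 and 1.29 on the log2 scale (adjusted p = 0.0410 and 0.0462), and Top2a, the topoisomerase that untangles replicated DNA, rose from 16.2 ± 2.01 to 35.5 ± 8.08 CPM (adjusted p = 0.0444).

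**Figure D2:**
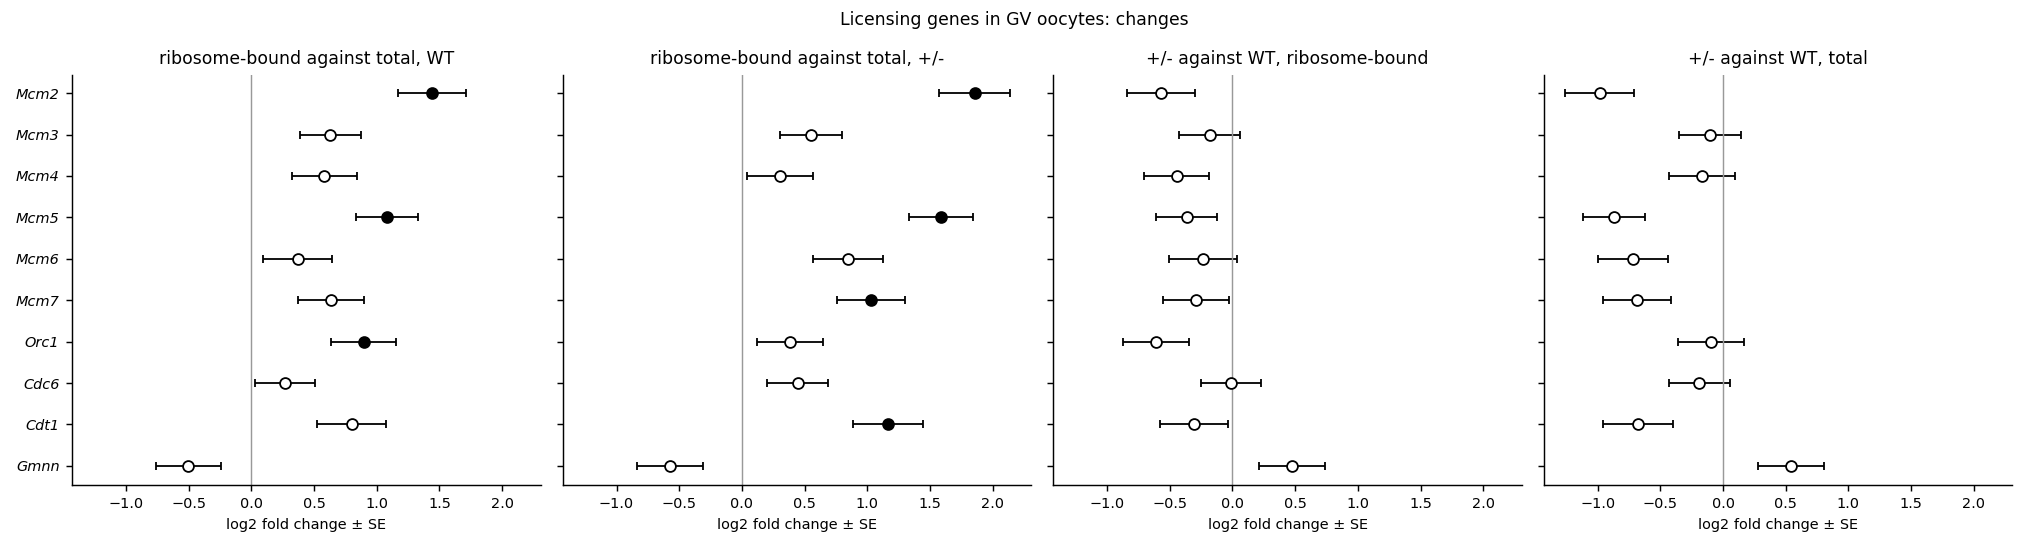
Log2 fold change ± SE of each licensing gene in 4 GV comparisons (n = 2 a group; filled points, adjusted p under 0.05 in edgeR over all genes). Filled points appear in the 2 fraction panels, for Mcm2 and Mcm5 in both, and Gmnn lies on the other side of 0 from most members in every panel.

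The makeup of the MCM2-7 mRNAs was far from equal and differed between the oocyte and embryo libraries. As each subunit is present once in the ring, each gene's share of the summed Mcm2-Mcm7 counts per kb was computed within each library. In WT GV total mRNA, Mcm5 held 25.2% and 28.8%, Mcm4 21.5% and 24.2%, and Mcm6 19.1% and 20.1%. In WT 1-cell embryos Mcm4 held 55.5% to 64.9%, and Mcm5 had the smallest share of the 6, at 1.90% to 6.24%. In WT 2-cell embryos Mcm6 held 34.0% to 51.4% and Mcm7 29.2% to 37.3%, and Mcm4 was down to 8.13% to 13.2%. The 3 WT stages do not overlap in the Mcm4 share. By transcript length in place of merged exons Mcm4 held 15.8% to 17.7%, 44.4% to 52.6% and 5.43% to 9.06% at the 3 stages, again without overlap, while in GV total mRNA Mcm6 (22.5% to 23.6%) and Mcm5 (21.8% to 25.0%) were then level. In CPM, Mcm5 was at 92.2 and 108 in WT GV total mRNA and at 5.96 to 12.4 in WT 1-cell embryos, whereas Gmnn was at 134 and 175 and then at 457 to 527. The 2 tables were scaled separately, so values of oocytes and embryos stand side by side with no test. The oocyte libraries come from T&T-seq and the embryo libraries are a separate set. Stage and library set therefore cannot be told apart between them, also for shares and ratios within a library.

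**Figure D3:**
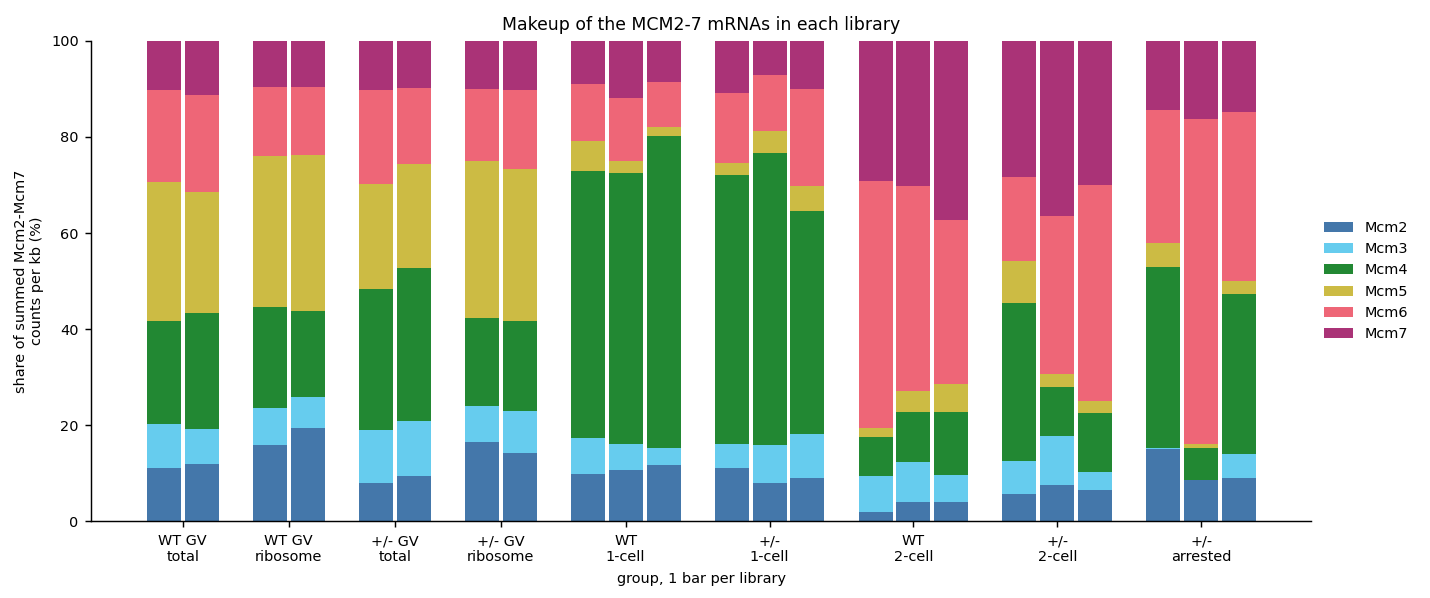
Share of each MCM subunit in the summed Mcm2-Mcm7 counts per kb of exon, in percent, with 1 bar per library. The Mcm4 share is largest in the 1-cell bars (55.5% to 64.9% in WT), and Mcm6 and Mcm7 fill most of the WT 2-cell bars.

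Among embryos, Mcm2 and Mcm4 fell from the WT 1-cell to the WT 2-cell stage, and none of the other 8 members passed in either direction. Over all genes 15.6% fell and 28.8% rose, and the median gene was 0.75 higher on the log2 scale at the 2-cell stage, against -0.64 for the median of the 10 members. Mcm4, a catalytic subunit of the helicase, was at 99.2, 131 and 183 CPM in WT 1-cell and at 9.07, 10.3 and 14.1 CPM in WT 2-cell embryos, a 12-fold difference (log2 -3.58 ± 0.63, adjusted p = 0.00118). Mcm2 was at 34.5, 47.9 and 64.4 CPM and then at 4.34, 8.01 and 8.24 CPM, a 6.91-fold difference (log2 -2.79 ± 0.49, adjusted p = 0.00115). The stages did not overlap for either gene, which was also so for 71.4% of all genes and 9 of the 10 members. Both genes kept their calls in 12 of 12 alternatives.

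The loading factors and the inhibitor were not called between these stages. Gmnn was at 457, 491 and 527 CPM at the 1-cell and 823, 858 and 929 CPM at the 2-cell stage (log2 0.87 ± 0.48, adjusted p = 0.155). Cdt1 was at 31.2, 44.4 and 48.1 CPM and then 7.98, 20.3 and 26.2 CPM (log2 -1.13 ± 0.58, adjusted p = 0.125). Neither pair of groups overlapped, as for 71.4% of all genes. The Gmnn to Cdt1 ratio per kb was 20.4 to 36.3 in WT 1-cell and 75.9 to 230 in WT 2-cell libraries. It was 2.07 and 3.05 in WT GV total mRNA, a separate set of libraries. Cdc6 was at 11.4, 11.8 and 16.7 CPM and then at 18.5, 23.4 and 34.6 CPM (log2 0.99 ± 0.62, adjusted p = 0.206). Mcm6 was at 27.3, 33.6 and 40.2 CPM and then at 47.2, 55.8 and 74.5 CPM (log2 0.86 ± 0.51, adjusted p = 0.182). In a fit of the 6 WT libraries alone, without the more variable Eif4enif1+/- groups, Mcm6, Cdc6 and Gmnn were also called, all higher at the 2-cell stage, where 68% of all genes were called in either direction. Mcm3, Mcm5, Mcm7 and Orc1 differed by -0.75 to 0.63 on the log2 scale (adjusted p 0.192 to 0.655).

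The same step in Eif4enif1+/- embryos also lowered Mcm2 (log2 -1.93 ± 0.43, adjusted p = 0.00359) and Mcm4 (log2 -3.02 ± 0.58, adjusted p = 0.00156), and Cdt1 as well (log2 -1.48 ± 0.52, adjusted p = 0.0365), where 13.9% of all genes fell. Mcm4 was at 109, 134 and 141 CPM in Eif4enif1+/- 1-cell and at 8.73, 12.3 and 26.1 CPM in Eif4enif1+/- 2-cell embryos. Mcm2 was at 34.6, 41.5 and 54.4 CPM and then at 8.80, 12.6 and 12.9 CPM. With 1-cell library 2 alone the calls of Mcm2 (adjusted p = 0.121) and Cdt1 (adjusted p = 0.317) ended, and Mcm4 was the 1 member called. The call of Cdt1 was lost in 10 of 12 alternatives in all, among them leaving out any 1 library (adjusted p 0.0602 to 0.142).

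Between genotypes, no member was called at either embryo stage. At the 2-cell stage 1 of 22730 genes was called (0.0044%) and at the 1-cell stage 0 of 23656 (0%). At the 1-cell stage 889 genes (3.76%) had an unadjusted p under 0.05 in edgeR. DESeq2 called 83 genes there and 74 at the 2-cell stage. No member had an unadjusted p under 0.05 at either stage, and DESeq2 called none. The members' differences at the 2-cell stage ran from -0.89 (Cdc6) to 0.74 (Mcm2) on the log2 scale. The widest 95% interval was that of Mcm3 (-2.48 to 1.80) and the narrowest that of Mcm7 (-1.04 to 0.45). Changes within a gene's own interval could not be told from none. Cdc6 was at 20.4, 27.6 and 32.4 CPM in Eif4enif1+/- against 11.4, 11.8 and 16.7 CPM in WT 1-cell embryos, and at 10.7, 13.7 and 16.9 against 18.5, 23.4 and 34.6 CPM at the 2-cell stage. The genotypes did not overlap at either stage, as for 16.2% of all genes at the 1-cell and 13.2% at the 2-cell stage. The signs were opposite, but the interaction was not called (adjusted p = 1), as for all 10 members (0.00423% of genes). With 1-cell library 2 alone no member and no other gene was called between genotypes at the 1-cell stage or in the interaction, where the value of Cdc6 was -1.57 ± 1.00 SE on the log2 scale (unadjusted p = 0.140). Gmnn in Eif4enif1+/- 1-cell embryos was at 707 CPM in library 2 and at 125 and 97.4 CPM in libraries 1 and 3, the pair with the flat profile.

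**Figure D4:**
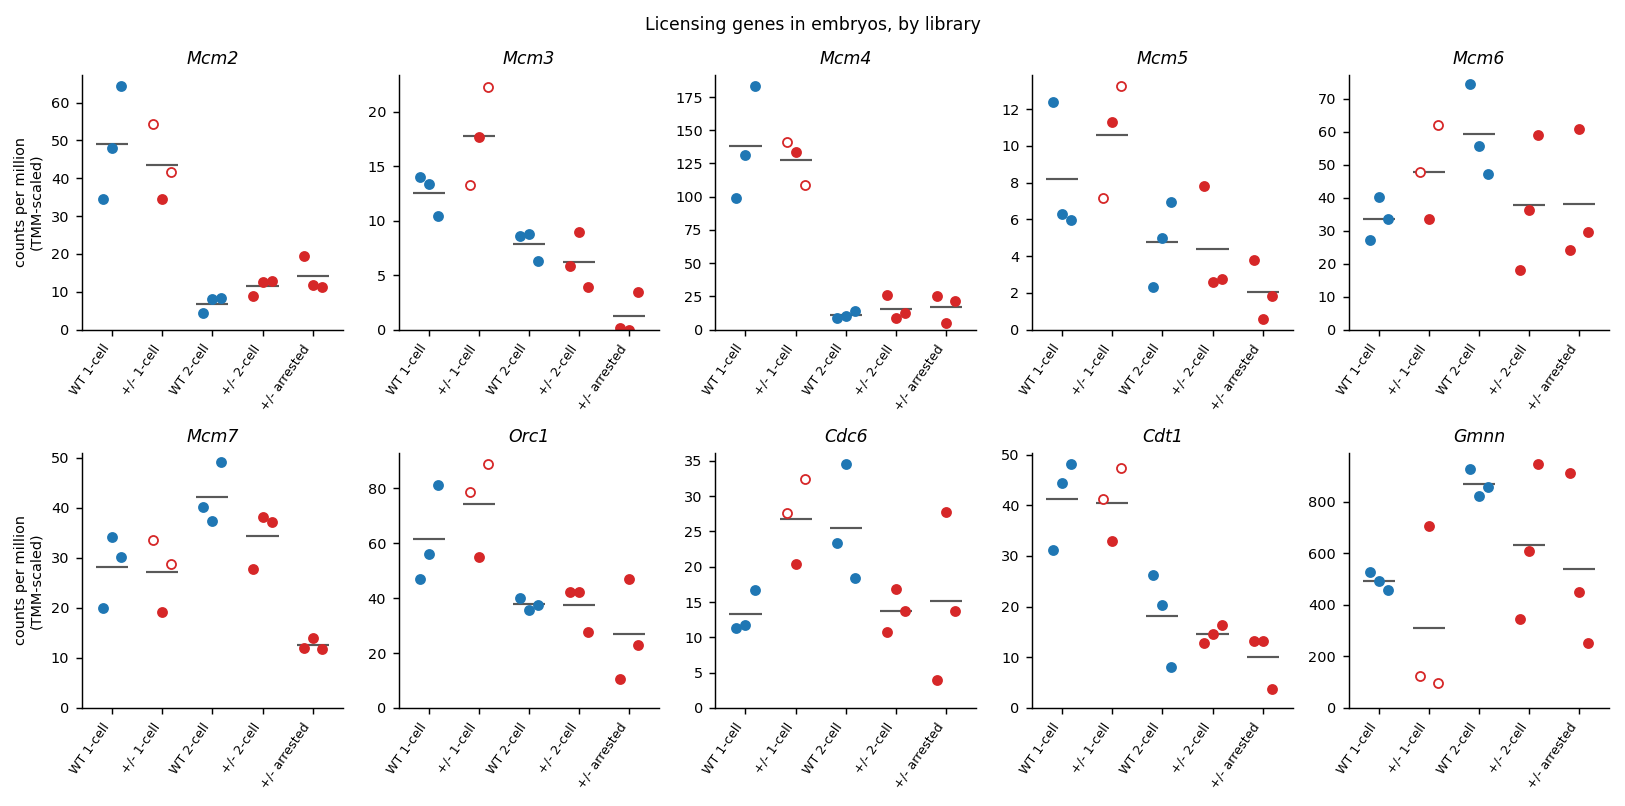
Level of each licensing gene in the 15 embryo libraries in TMM-scaled CPM, each axis starting at 0 (points, libraries; blue, WT; red, Eif4enif1+/-; open points, Eif4enif1+/- 1-cell libraries 1 and 3; bars, group means, n = 3). Mcm2 and Mcm4 are high in both 1-cell groups and low in the 2-cell and arrested groups, and the 3 arrested libraries are lowest for Mcm7 (11.8 to 14.0).

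The arrested embryos had 1 cell, and several of their licensing mRNAs were lower than in 1-cell embryos. Against the WT 1-cell group 4 of 10 members fell: Mcm2, Mcm4, Mcm7 and Cdt1. None rose, and 4.71% of all genes fell. The median over the 10 members was -1.53 on the log2 scale, and over all genes 0.43. Mcm4 was at 4.58, 21.6 and 25.3 CPM in the arrested libraries against 99.2, 131 and 183 CPM (log2 -3.10 ± 0.62, adjusted p = 0.00787), and Mcm2 at 11.3, 11.7 and 19.5 CPM against 34.5, 47.9 and 64.4 CPM (log2 -1.85 ± 0.47, adjusted p = 0.0204). Cdt1 was at 3.63, 13.2 and 13.3 CPM against 31.2, 44.4 and 48.1 CPM (log2 -2.07 ± 0.60, adjusted p = 0.0333). For each of the 3 genes every arrested library lay below every WT 1-cell library. These groups did not overlap, in either direction, for 26.7% of all genes and 6 of the 10 members. Without arrested library 1, which has the most oocyte marker RNA, 5 members were called (Mcm5 was added), as the share of all genes called in either direction went from 17.3% to 28.6%. In a fit of the 6 libraries compared alone no member passed (Mcm4, adjusted p = 0.0528), and 3.6% of all genes were called in either direction.

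Mcm2 and Mcm4 in the arrested embryos were near their 2-cell levels. Against Eif4enif1+/- 2-cell embryos, of the same label and culture time, Mcm4 differed by 0.00 on the log2 scale (95% interval -1.13 to 1.13) and Mcm2 by 0.21 (interval -0.70 to 1.11), so differences within those intervals could not be told from none. Against WT 2-cell embryos, Mcm2 was at 11.3, 11.7 and 19.5 CPM beside 4.34, 8.01 and 8.24 CPM (log2 0.94 ± 0.46, adjusted p = 0.178). These groups did not overlap, as for 41.3% of all genes.

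Mcm7 was the 1 member called against the 2-cell groups, and its level in the arrested embryos was lower than in both. It was at 11.8, 11.96 and 13.95 CPM in the arrested libraries, at 37.3, 40.2 and 49.1 CPM in WT 2-cell, at 27.8, 37.2 and 38.2 CPM in Eif4enif1+/- 2-cell and at 20, 30.2 and 34.1 CPM in WT 1-cell embryos. The arrested values lay close together and below every library of the other groups. Over all genes, arrested libraries did not overlap with WT 2-cell for 41.3%, with Eif4enif1+/- 2-cell for 26.2% and with WT 1-cell libraries for 26.7%. The difference was -1.84 ± 0.39 on the log2 scale from WT 2-cell (adjusted p = 0.0137), where 7.69% of genes fell, -1.55 ± 0.39 from Eif4enif1+/- 2-cell (adjusted p = 0.0395), where 3.39% fell, and -1.21 ± 0.39 from WT 1-cell embryos (adjusted p = 0.0475). These 3 comparisons share the arrested libraries. In fits of only the libraries compared the adjusted p was 0.063, 0.291 and 0.235. Those fits called 0%, 0% and 3.6% of all genes in either direction, against 15.1%, 5.59% and 17.3% in the main fits. The log2 value of Mcm7 stayed between -1.92 and -1.68 against WT 2-cell embryos when single libraries were left out. Its call ended without any 1 WT 2-cell library (adjusted p 0.0507 to 0.0612). Without WT 2-cell library 1, 2 or 3, the share of all genes called in either direction was 0%, 0.00412% and 6.42%. Against Eif4enif1+/- 2-cell embryos the call of Mcm7 ended without 2-cell library 2 or 3 or arrested library 1 or 3 (adjusted p 0.0614 to 0.157). In that order, these fits called 0%, 0%, 3.78% and 5.41% of all genes in either direction. Against WT 1-cell embryos it ended without any 1 WT 1-cell library or arrested library 2 or 3 (adjusted p 0.0617 to 0.183). There 5.54% to 12.3% of all genes were called in either direction.

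Mcm3 was almost absent from arrested libraries 1 and 2, with 2 and 0 counts, and had 45 counts (3.48 CPM) in library 3. A count of 0 in library 2 allows up to 0.154 CPM, taking 3 counts as the limit. It was at 10.4, 13.3 and 14.0 CPM in WT 1-cell, 6.31, 8.56 and 8.76 CPM in WT 2-cell and 3.89, 5.80 and 8.96 CPM in Eif4enif1+/- 2-cell embryos, all above the 3 arrested values. Over all genes, arrested libraries did not overlap with these groups for 26.7%, 41.3% and 26.2%. The fitted differences of Mcm3 did not pass against these groups (adjusted p = 0.0633, 0.114 and 0.196). Mcm5 had 11 to 40 counts in the arrested libraries (0.566, 1.85 and 3.77 CPM), below the 5.96 to 12.4 CPM of WT 1-cell embryos, and did not pass (adjusted p = 0.104). Orc1 (10.6, 22.9 and 47.2 CPM), Cdc6 (3.96, 13.7 and 27.7 CPM), Mcm6 (24.1, 29.7 and 60.8 CPM) and Gmnn (251, 449 and 911 CPM) were spread widely within the arrested group and did not pass against WT 1-cell embryos. In Orc1, Cdc6 and Mcm6 arrested library 1 was lowest and library 2 highest. Gmnn was highest in library 1 and lowest in library 3.

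Against Eif4enif1+/- 1-cell embryos 5 members were lower in the arrested group (Mcm2, Mcm3, Mcm4, Cdt1 and Orc1), where 3.91% of all genes fell. Mcm3 rests on the 2, 0 and 45 arrested counts (adjusted p = 0.0323). The size was -2.90 for Mcm4, -1.62 for Mcm2, -2.01 for Cdt1 and -1.46 for Orc1 on the log2 scale (adjusted p = 0.00615, 0.0213, 0.0216 and 0.0488). With 1-cell library 2 alone none was called (adjusted p 0.0967 to 0.418), and these 4 values were -3.13, -1.47, -1.90 and -1.30. That of Mcm3 was then -4.14 (adjusted p = 0.212).

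**Figure D5:**
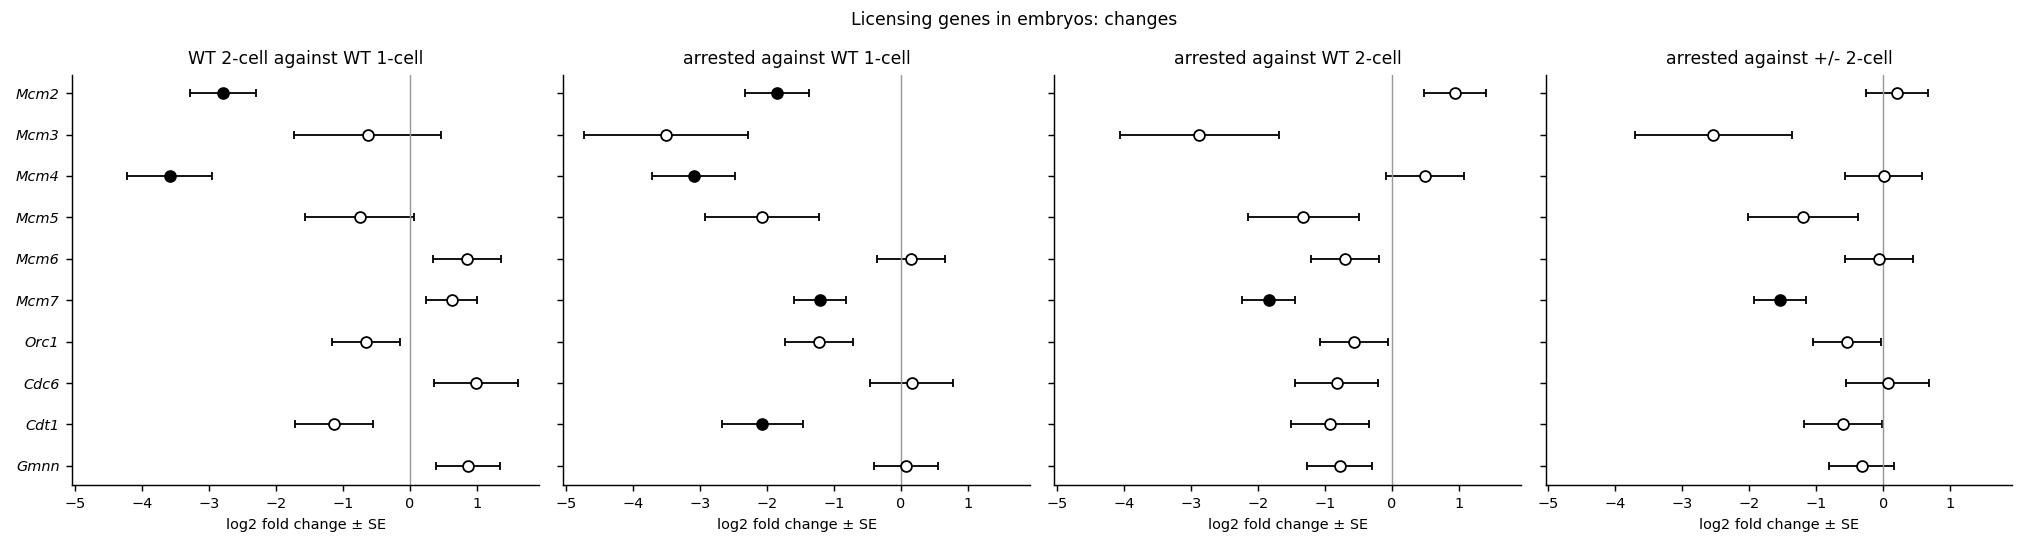
Log2 fold change ± SE of each licensing gene in 4 embryo comparisons (n = 3 a group; filled points, adjusted p under 0.05 in edgeR over all genes). Mcm2 and Mcm4 are filled below 0 against WT 1-cell embryos in the first and second panels, and in the 2 panels against 2-cell embryos Mcm7 is the filled point.

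Other replication genes moved in both directions. From the WT 1-cell to the 2-cell stage 17 of 97 rose and 30 fell, where 28.8% of all genes rose and 15.6% fell. The 4 that fell of 5 other MCM proteins and partners included Mcm9, of a repair helicase (710 ± 145 to 87.4 ± 11.4 CPM, SD, n = 3; adjusted p = 0.000568), and Mcm10 (23.2 ± 5.28 to 7.18 ± 0.547 CPM, adjusted p = 0.0241). Of 32 fork genes 17 fell and 5 rose, with Timeless, of the fork protection complex, going from 41.7 ± 5.26 to 4 ± 1.23 CPM (adjusted p = 0.00127). Of 6 other ORC genes Orc5 fell from 989 ± 134 to 80.8 ± 32.3 CPM (adjusted p = 0.000998) and Orc2 rose. Among regulators, Ccne1, the cyclin that drives S-phase entry with CDK2, rose from 15.6 ± 2.06 to 511 ± 121 CPM (adjusted p = 0.000301), and Cdkn1a rose from 2.11 ± 0.889 to 128 ± 7.26 CPM (adjusted p = 0.000618).

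In arrested embryos 4 of the 97 rose and 10 fell against WT 1-cell embryos, where 12.6% of all genes rose and 4.71% fell. Prim2, the large primase subunit, fell from 147 ± 19.4 to 12 ± 1.31 CPM (adjusted p = 0.000831), and Orc4 from 468 ± 101 to 111 ± 43.0 CPM (adjusted p = 0.00643). Ccne1 rose to 164 ± 115 CPM (adjusted p = 0.00372), between the WT 1-cell and 2-cell means. Against WT 2-cell embryos 8 rose and 10 fell, where 7.41% of all genes rose and 7.69% fell. The 3 that fell among 13 origin-firing genes were Cdc45 (164 ± 15.4 to 56.6 ± 22.7 CPM, adjusted p = 0.0315) and Gins3 (36.8 ± 12 to 8.11 ± 5.05 CPM, adjusted p = 0.0449), whose products join MCM2-7 to form the active helicase, and Topbp1 (49.5 ± 10.6 to 20.3 ± 4.41 CPM, adjusted p = 0.0306). Against Eif4enif1+/- 2-cell embryos, where 2.2% of all genes rose and 3.39% fell, 3 rose and 0 fell. The 3 were Mcm9, Mtbp and the p53-induced reductase subunit Rrm2b (69.1 ± 29.9 to 361 ± 168 CPM, adjusted p = 0.0252). The list of 2-cell markers moved with these results, at 156 to 3449 CPM in arrested, 729 to 1533 CPM in WT 2-cell and 54.1 to 71.5 CPM in WT 1-cell libraries. The sum of the 8 blood markers also did, at 14.9 to 401 CPM in arrested, 384 to 555 CPM in WT 2-cell and 0.754 to 4.36 CPM in WT 1-cell libraries. However, 3 to 5 of the 8 were at 0 in arrested and 4 to 5 in WT 2-cell libraries, so these sums rest on the remaining genes. The sum of the 7 oviduct markers moved too, at 8.85 to 71.9, 15.7 to 20.2 and 0.206 to 1.93 CPM, with 2 to 6 at 0 in arrested and 0 to 3 in WT 2-cell libraries. The part of these 3 lists in the results on embryos was not tested.

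Across the 12 embryo libraries without the Eif4enif1+/- 1-cell group, the members did not follow 1 pattern. The pair most alike was Mcm2 and Mcm4 (Pearson r = 0.87 of log CPM) and the least alike Mcm4 and Mcm6 (r = -0.50). These libraries come from 4 groups, so the points are not independent. Among the other well-expressed genes (7050 compared with Mcm4), the nearest to Mcm4 was Cnot11 (r = 0.98), to Mcm2 Tmem209 (r = 0.98), to Mcm7 Ppid (r = 0.96), to Gmnn Ngdn (r = 0.94) and to Cdt1 Atg16l1 (r = 0.92).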

How the data were processed

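Raw gene-level read counts were deposited by the authors in 2 tables, of 8 GV and 15 embryo libraries. The mm10 build, featureCounts 1.6.5, HISAT2 2.1.0 and Trim Galore 0.6.4 are named per the submitters' processing notes. Annotation release, strand setting and duplicate handling were not stated. No molecular identifiers are named, so limits from counts cover counting error only. Of 28 symbols turned into spreadsheet dates in each table, 27 were restored by gene identifier.

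Counts were tested with edgeR 4.0.16 in R 4.3.3 (filterByExpr, TMM, quasi-likelihood F test, Benjamini-Hochberg over all genes, threshold 0.05). All 8 GV libraries entered 1 fit. Embryo comparisons used 12 libraries, or all 15 where Eif4enif1+/- 1-cell embryos were compared. Exon lengths and coordinates are from GENCODE vM21 on mm10. Alternatives were RLE scaling, no filter, DESeq2 1.42.0, other sets of libraries, a replicate block and leaving out each library. The block was the specimen in comparisons of fractions and the replicate number elsewhere. Nothing in the labels shows that replicates came from different animals, so p-values rest on a spread between libraries that may be technical.

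Both fractions of a GV sample carry the same specimen number in the labels. Their deviations from the group means correlated at 0.27 in Eif4enif1+/- and 0.049 in WT oocytes over 9075 genes.

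The members and gene lists were chosen with earlier results of these data known. Besides the members, the rule named up to 4 called genes of each replication list, those with the lowest adjusted p, and the genes with the most similar profile.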

Additional observations from a re-analysis of the deposited data

Results flagged for a closer look

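Cdc6 went opposite ways between genotypes at the 2 embryo stages: every Eif4enif1+/- 1-cell library (20.4 to 32.4 CPM) was above every WT 1-cell library (11.4 to 16.7 CPM), and every Eif4enif1+/- 2-cell library (10.7 to 16.9 CPM) was below every WT 2-cell library (18.5 to 34.6 CPM). The difference of the genotype differences, 2-cell minus 1-cell, was -1.90 ± 0.785 (SE) on the log2 scale, with an unadjusted p of 0.0283 and an adjusted p of 1 in edgeR over all genes. The comparison was added after seeing the data. Genotypes did not overlap for 16.2% of all genes at the 1-cell and 13.2% at the 2-cell stage. The 2 highest Eif4enif1+/- 1-cell values are those of libraries 1 and 3, which have the flat profile, and library 2 was at 20.4 CPM. With library 2 alone the value was -1.57 ± 1.00 (unadjusted p = 0.140, adjusted p = 1).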

How the results depend on the processing

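Counts of called members were compared with those above under RLE scaling, no filter on low counts, DESeq2, other sets of libraries, a replicate block and leave-one-out fits. The 23 calls of members gave 255 values under these alternatives, of which 168 stayed called and 87 did not, and none turned its direction. Of the members not called, 31 values became called. For Eif4enif1+/- against WT total GV mRNA, where no member was called, the count was 1 with no filter and 2 with DESeq2. For translatome against transcriptome in WT oocytes it was 3, and 5 with DESeq2 and 0 to 2 with 1 library left out. In Eif4enif1+/- oocytes it was 4, and 0 to 5 with 1 library left out. For WT 2-cell against WT 1-cell embryos it was 2, and 5 in a fit of only the libraries compared. For arrested against WT 1-cell embryos it was 4, and 0 with only the libraries compared, 2 with a replicate block, and 1 to 5 with 1 library left out. For arrested against WT 2-cell embryos it was 1, and 2 with DESeq2, 0 with only the libraries compared, and 0 to 2 with 1 library left out. For arrested against Eif4enif1+/- 2-cell embryos it was 1, and 0 with no filter, 0 with only the libraries compared, 0 with a replicate block, and 0 to 1 with 1 library left out. For Eif4enif1+/- 2-cell against 1-cell embryos it was 3, and 1 with 1-cell library 2 alone, and 2 with RLE scaling, no filter, a replicate block or 1 library left out (3 without Eif4enif1+/- 1-cell library 2, with Gmnn in place of Cdt1). For arrested against Eif4enif1+/- 1-cell embryos it was 5, and 3 with no filter, 0 with only the libraries compared, 0 with 1-cell library 2 alone, 3 with a replicate block, and 1 to 5 with 1 library left out. The cause of these moves was not tested, beyond the fewer samples in the smaller fits. GV fits with 1 library left out have 1 library in a group and called fewer of all genes between fractions. Their counts are therefore not specific to the members.

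Embryo libraries share only a number: deviations of same-numbered libraries correlated at -0.45 to 0.26 and 4 of 30 pairs were over 0.1, so the replicate block there is no paired design. Between genotypes in GV oocytes the block was the replicate number too, which joins different specimens (correlations of -0.35 and -0.45), and it left no member called. Over all genes, RLE scaling moved the share of higher among called genes from 55.4% to 65.7% in the genotype comparison of total GV mRNA, and the median of all genes from 0.36 to 0.53 on the log2 scale for Eif4enif1+/- 2-cell against 1-cell embryos. The share of all genes called ranged over the alternatives from 5.17% to 18.1% for translatome against transcriptome in WT and from 0.00395% to 15.3% in Eif4enif1+/- oocytes, from 0.668% to 9.56% and from 0.273% to 7.91% between genotypes in the translatome and transcriptome, from 25.3% to 68% for WT 2-cell against 1-cell, from 3.6% to 30.1% for arrested against WT 1-cell, and from 0 to 28.4% and 19.6% for arrested against WT and Eif4enif1+/- 2-cell embryos. Groups of 2 or 3 libraries, and fewer than 50 counts of Mcm3 and Mcm5 in each arrested library, limit what could be detected.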
